A study of Mus musculus and synthetic construct with 30 samples.

Results

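The tiles described here cover parts of 4 mouse genes, Enc1, Cdkn1a, Irx5 and Sox2, and were carried by reporter plasmids in a massively parallel reporter assay. In that assay many short DNA tiles are cloned beside a minimal promoter and a GFP gene, each plasmid carries a short barcode in the transcript, and the barcode's abundance in RNA is set against its abundance in plasmid DNA. The members were the oligos whose name in the study's oligo list began with one of these 4 gene names and did not mark a scrambled sequence. The readable part of the list, which holds 22118 oligos in all, had 295 such oligos, each with its own barcode. They made up 59 tiles of 90 bases, with 5 barcodes designed for each tile. Enc1 had 18 tiles, Cdkn1a 21, Irx5 14 and Sox2 6. Only the first 1196 oligos of the list could be read here, and the remaining 20922 were not analysed here. The paper tiled each locus with overlapping windows, but most tiles read here do not overlap. Other tiles of these loci are therefore missing, and statements about a locus below refer to the tiles read.

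The plasmid pool was transfected into C2C12, an established line of mouse myoblasts. Barcodes were counted in 5 RNA libraries, named A_1, A_2, B_1, B_2 and B_3 in the labels, and in 5 libraries of plasmid DNA, named A_1, A_2, A_3, B_1 and B_2. The RNA came from cells of 2 passages and the DNA libraries were made on 2 days, but which letter stands for which was not given in the sources used here. Total counts ran from 9846269 to 35098552 per library. All libraries held the same plasmid pool, so p-values below measure the spread between these libraries, which may in part be technical.

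Enc1 encodes a kelch-repeat protein of the actin cytoskeleton first described in the nervous system. Cdkn1a encodes p21, an inhibitor of cyclin-dependent kinases that is induced by p53 and rises when myoblasts leave the cell cycle. Irx5 encodes an Iroquois homeodomain transcription factor, and Sox2 encodes an HMG-box transcription factor of pluripotent and neural progenitor cells. A tile that acts as an enhancer or promoter in such an assay gives more RNA than its share of plasmid DNA predicts, and a tile without such activity gives the RNA of the minimal promoter alone.

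All 59 tile sequences matched the plus strand of mm10 exactly and had a single match on their chromosome. All 4 genes lie on the plus strand. In the GENCODE vM21 annotation the genes span chr13:97241105-97253034 (Enc1), chr17:29090976-29100727 (Cdkn1a), chr8:92357625-92376286 (Irx5) and chr3:34650405-34652461 (Sox2). Tiles were numbered t1, t2 and so on from the 5′ end of each locus. The sequences below belong to the tiles on which the results turn, written 5′ to 3′ on the plus strand of mm10. The first set holds tiles upstream of the genes. Capitals mark motifs found on either strand. These were the E-box of basic helix-loop-helix factors, searched as CANNTG, and the GC box of the Sp family, searched as GGGCGG. The TATA box of core promoters was searched as TATAAA and the box bound by nuclear factor Y as CCAAT. The MCAT element of muscle genes, which TEAD factors bind, was searched as CATTCC.
Enc1_t1, chr13:97240546-97240635, 559 bases before the start of Enc1, with 1 active barcode: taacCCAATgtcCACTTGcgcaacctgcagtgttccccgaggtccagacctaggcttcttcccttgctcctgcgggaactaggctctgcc
Enc1_t3, chr13:97240840-97240929, the tile nearest upstream of the start of Enc1: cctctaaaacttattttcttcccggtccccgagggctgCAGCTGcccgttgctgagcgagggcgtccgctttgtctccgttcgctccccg
Irx5_t1, chr8:92356796-92356885, 829 bases before the start of Irx5: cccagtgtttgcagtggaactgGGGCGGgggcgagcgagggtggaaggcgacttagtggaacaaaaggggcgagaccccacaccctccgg
Irx5_t2, chr8:92357482-92357571, 143 bases before the start of Irx5: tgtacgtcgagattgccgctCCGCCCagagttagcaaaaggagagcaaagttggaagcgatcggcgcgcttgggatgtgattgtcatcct
Sox2_t1, chr3:34649142-34649231, 1263 bases before the start of Sox2: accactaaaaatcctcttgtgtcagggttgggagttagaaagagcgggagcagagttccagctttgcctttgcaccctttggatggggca
Sox2_t2, the 87 bases up to the start of Sox2, chr3:34650318-34650404, a tile with no measurable barcode: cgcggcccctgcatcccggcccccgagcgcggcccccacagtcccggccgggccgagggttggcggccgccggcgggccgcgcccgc

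The second set holds tiles inside the genes, with the same marks. Enc1_t8, Cdkn1a_t5 and Irx5_t6 were the highest or lowest tiles of their locus, Cdkn1a_t7 is shown because all of its barcodes lay below 0, and Irx5_t9 had no measurable barcode.
Enc1_t8, chr13:97243996-97244085, intron: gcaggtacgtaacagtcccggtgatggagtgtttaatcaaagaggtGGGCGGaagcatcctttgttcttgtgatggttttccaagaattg
Cdkn1a_t5, chr17:29091994-29092083, intron: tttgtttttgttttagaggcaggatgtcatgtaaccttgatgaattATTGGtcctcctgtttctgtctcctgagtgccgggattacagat
Cdkn1a_t7, chr17:29092673-29092762, intron: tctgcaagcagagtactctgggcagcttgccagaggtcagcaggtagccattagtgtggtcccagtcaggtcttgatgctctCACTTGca
Irx5_t6, chr8:92359246-92359335, intron: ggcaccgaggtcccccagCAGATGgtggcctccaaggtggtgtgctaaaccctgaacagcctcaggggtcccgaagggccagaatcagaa
Irx5_t9, chr8:92359932-92360021, across the edge of a coding exon: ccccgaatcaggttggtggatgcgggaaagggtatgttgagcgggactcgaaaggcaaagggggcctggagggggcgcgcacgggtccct

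The third set is a pair of neighbouring tiles in an Enc1 intron that overlap. Here capitals mark the 41 bases that both tiles share, not motifs.
Enc1_t6, chr13:97243457-97243546: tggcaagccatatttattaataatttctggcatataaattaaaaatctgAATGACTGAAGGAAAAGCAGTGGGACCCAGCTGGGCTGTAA
Enc1_t7, chr13:97243506-97243595: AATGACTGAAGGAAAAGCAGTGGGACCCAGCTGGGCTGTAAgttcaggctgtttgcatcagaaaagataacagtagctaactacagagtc

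The E-box, which myogenic factors such as MyoD bind, was the most frequent of the motifs searched. It occurred in 22 of the 59 tiles, or 37.3%, beside 39.1% of the 179 genomic tiles that could be read. By locus it occurred in 10 of 18 Enc1 tiles, 9 of 21 Cdkn1a tiles, 1 of 14 Irx5 tiles and 2 of 6 Sox2 tiles. The GC box was found in 4 of the 59 tiles (6.8%, beside 6.7% of the 179), the TATA box in 4 (6.8%, beside 10.1%), the CCAAT box in 8 (13.6%, beside 13.4%) and the MCAT element in 2 (3.4%, beside 5.0%). TGANTCA (AP-1) and TGACGTCA (CRE) had no match in the 59 tiles, and 1.1% and 0.0% of the 179 tiles held them. A match describes letters only and says nothing of binding in C2C12 cells.

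Many designed barcodes were too rare in the plasmid pool to be measured. A barcode was kept when it had 10 or more counts in 3 or more DNA libraries, and 181 of the 295 passed (61.4%). Of the Enc1 barcodes 69 of 90 passed, of Cdkn1a 61 of 105, of Irx5 35 of 70 and of Sox2 16 of 30. At least 1 barcode passed in 55 tiles, 3 or more in 40 tiles and all 5 in 12 tiles. The scrambled control oligos, shuffled sequences carried through the same cloning, passed in 85.5% of cases (124 of 145). The mean DNA count of a passing member ranged from 8.0 to 13676.

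The 4 tiles without a passing barcode included the 3 tiles read here that crossed the first annotated start of their gene. These were Cdkn1a_t3, which begins 17 bases before the start of Cdkn1a, Irx5_t3, which begins 45 bases before that of Irx5, and Sox2_t2, which begins 87 bases before that of Sox2. In none of the 15 barcodes of these tiles did the mean count over the DNA libraries exceed 1.0. The fourth tile was Irx5_t9, inside the gene. No Enc1 tile that was read crossed its start: Enc1_t3 ended before it and Enc1_t4 began 176 bases after it. The tiles read here therefore gave no measure of the sequence at the first annotated start in any of these loci. Tiles in the unread part of the list may cover it. Of the later start sites of Cdkn1a in the study's list, 1 lies inside Cdkn1a_t16, whose single passing barcode had a log2 ratio of -0.65 and was called lower (adjusted p = 6.71e-05 by edgeR).

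Recovery was lower for tiles of higher GC content. Below 50% GC, 74.8% of designed barcodes passed (86 of 115, 23 tiles). From 50% to under 60% GC, 59.0% passed, and from 60% to under 70%, 47.7%. In the 3 tiles of 70% GC or more, 33.3% passed (5 of 15), and Sox2_t2, at 87.8% GC, was one of these. Over the 59 tiles the number of passing barcodes and GC content had a Pearson r of -0.36 and a Spearman rho of -0.33, given as a description, since all tiles share the same pool and libraries.

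RNA was compared with DNA for every barcode in a single fit of all 16285 passing barcodes of the pool, and each member was read from it. A barcode was called higher or lower at an adjusted p under 0.01 in edgeR's quasi-likelihood test, and active when it was also more than 1 on the log2 scale above its DNA. Libraries were scaled by their median count, so ratios are relative to the typical barcode of the pool. A log2 ratio of 0 does not mean equal shares of the total RNA and DNA counts. Of the 181 members 51 were higher (28.2%) and 33 were lower (18.2%), while 97 were not called. In the whole pool 23.4% of barcodes were higher and 19.2% were lower, so the members lay close to the background in both directions. Active members numbered 2 (1.1%), against 4.19% of the pool, and 2 members were called with a log2 ratio below -1, against 2.14% of the pool. Positive control tiles of the CMV promoter, a strong viral promoter, were active in 25 of 43 barcodes, with a median log2 ratio of 1.14. Tiles of another control promoter, Ef1a, were active in 9 of 88 barcodes, with a median of 0.30. Scrambled controls had 47 higher, 15 lower and 5 active of 124 barcodes, with a median of 0.17.

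The balance of calls varied between the loci, but these counts were not tested against each other or against the pool. Enc1 had 22 higher and 10 lower of 69 barcodes. Cdkn1a had 12 higher and 16 lower of 61, and was the only one of the 4 loci with more lower than higher barcodes. Irx5 had 10 higher and 6 lower of 35, and Sox2 had 7 higher and 1 lower of 16. Of the 7 higher Sox2 barcodes, 4 came from the single tile Sox2_t1. As shares, 31.9% of barcodes were higher in Enc1, 19.7% in Cdkn1a, 28.6% in Irx5 and 43.8% in Sox2, against 23.4% of the pool. The lower share was 26.2% in Cdkn1a, 17.1% in Irx5 and 6.2% in Sox2, against 19.2% of the pool. The middle 50% of the log2 ratios ran from -0.22 to 0.32 in Enc1, from -0.37 to 0.30 in Cdkn1a, from -0.18 to 0.34 in Irx5 and from -0.06 to 0.42 in Sox2. These ranges overlap each other and that of the scrambled controls, -0.17 to 0.40.

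Barcodes of 1 tile carry the same 90 bases, so their agreement shows how well a tile's value is known. The pooled SD of the log2 ratio between barcodes of the same tile was 0.43. The SD of the tile medians, over the 40 tiles with 3 or more passing barcodes, was 0.23. A median over several barcodes varies less than a single barcode, so these SDs cannot be compared directly. Of the 48 tiles with 2 or more passing barcodes, 14 held both a higher and a lower barcode. All passing barcodes were higher in 2 of the 48 tiles, Sox2_t1 and Irx5_t2, and all were lower in none. The median standard error of a single barcode's log2 ratio was 0.097, so the spread between barcodes of a tile was larger than the error of a single barcode.

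Both active barcodes belonged to Enc1. The barcode ATTTTCCGAT of Enc1_t1 had scaled levels (log2 of the count, plus 0.5, over the library's median count) of 4.58, 4.50, 5.12, 4.99 and 5.03 in RNA libraries A_1, A_2, B_1, B_2 and B_3. Its levels in DNA libraries A_1, A_2, A_3, B_1 and B_2 were 3.19, 3.26, 3.16, 3.26 and 3.25. Every RNA library lay above every DNA library, and the letter B RNA libraries were the highest. Its log2 ratio was 1.64 (SE 0.080), a 3.12-fold excess of RNA, with an adjusted p of 3.45e-17 in edgeR's quasi-likelihood test.

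The other barcodes of Enc1_t1 were lower than this one. TGTATCGCTT had a log2 ratio of 0.63 (SE 0.054, adjusted p = 2.77e-11 by edgeR) and CCTGCAATCC of 0.26 (SE 0.064, adjusted p = 9.66e-04 by edgeR), both called higher. AAGTAGTCAC, at -0.24, and GATGAGTCCG, at -0.59, were not called, and had mean DNA counts of 127.6 and 144.6, against 1679.2 or more for the 3 called barcodes. The tile median was 0.26, with an SD of 0.86 between its 5 barcodes, so the tile as a whole was not active.

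The second active barcode, ATTTGTCGAC of Enc1_t7, had scaled levels of 1.82, 1.69, 1.26, 1.34 and 1.37 in RNA libraries A_1, A_2, B_1, B_2 and B_3. Its levels in DNA libraries A_1, A_2, A_3, B_1 and B_2 were 0.22, 0.35, 0.19, -0.07 and 0.15. The groups did not overlap, and here the letter A RNA libraries were the highest. Its log2 ratio was 1.34 (SE 0.096, adjusted p = 5.54e-13 by edgeR), or 2.54-fold. The other passing barcodes of the tile, TAGCGGGATC at -0.07 and ATTTGTCGAT at 0.41, were not called. ATTTGTCGAT differs from the active barcode at a single base, and its mean DNA count was 126.2 against 721.2. Whether reads moved between such near-identical barcodes was not tested.

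Enc1_t6 and Enc1_t7 share 41 bases, yet among the Enc1 tiles with 3 or more barcodes the first had the lowest median and the second came next to the highest. The median log2 ratio was -0.24 in Enc1_t6 (3 barcodes, from -0.59 to 0.26) and 0.41 in Enc1_t7 (3 barcodes, from -0.07 to 1.34). The difference of 0.66 is within the range spanned by the barcodes of Enc1_t7 itself. The scaled level of Enc1_t6, as the median over its barcodes, was -1.68, -1.55, -1.45, -2.39 and -2.35 in RNA libraries A_1, A_2, B_1, B_2 and B_3. It was -1.71, -1.68, -1.29, -1.66 and -1.60 in DNA libraries A_1, A_2, A_3, B_1 and B_2. The groups overlapped, with RNA libraries B_2 and B_3 below all others. In Irx5, where t11, t12 and t13 overlap in the same way, the medians of the neighbours differed by less: 0.03 in Irx5_t11 (4 barcodes), 0.05 in Irx5_t12 (5 barcodes) and -0.03 in Irx5_t13 (4 barcodes).

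The tile with the highest median in Enc1 was the intronic Enc1_t8, at 0.50 (4 barcodes, from -0.29 to 0.69, 2 called higher). Its scaled levels were -1.26, -1.96, -1.42, -1.48 and -1.24 in RNA libraries A_1, A_2, B_1, B_2 and B_3, and -1.67, -1.67, -1.85, -1.72 and -1.58 in DNA libraries A_1, A_2, A_3, B_1 and B_2. RNA library A_2 lay below every DNA library and the other 4 RNA libraries above them. Enc1_t3, next to the start site, had a median of 0.32 with barcodes from 0.08 to 0.38, 2 of 3 called higher. The barcode furthest below its DNA in this locus, GCAAATGTCG of Enc1_t17 in an untranslated region, had a log2 ratio of -1.20 (SE 0.141, adjusted p = 2.04e-08 by edgeR). The other 4 barcodes of Enc1_t17 lay between -0.40 and 0.24.

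In the Cdkn1a tiles that were read no barcode was active, and the highest log2 ratio was 0.88, in Cdkn1a_t14. The lowest tile median was that of Cdkn1a_t5, in an intron 1018 bases into the gene, at -0.47 (3 barcodes). Its scaled levels were -1.17, -1.54, -1.56, -1.37 and -1.50 in RNA libraries A_1, A_2, B_1, B_2 and B_3, and -0.19, 0.10, -0.22, -0.07 and -0.14 in DNA libraries A_1, A_2, A_3, B_1 and B_2. Every RNA library lay below every DNA library, but these medians came from different barcodes. The middle barcode was ACTTTTGCGT in the RNA libraries and GGATCGACAT in the DNA libraries, so the gap is not that of a single barcode. The 3 barcodes of Cdkn1a_t5 disagreed. ACTTTTGCGT had a log2 ratio of -1.88 (SE 0.105, adjusted p = 1.23e-15 by edgeR), the lowest of all members. ATGGAGCCGT was at -0.47 and GGATCGACAT at 0.49, the latter called higher.

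Cdkn1a_t7, named after its values were seen, was lower more evenly. All 5 of its barcodes had log2 ratios below 0, from -0.87 to -0.05, with a median of -0.39, and 3 were called lower. The 2 barcodes with the most plasmid, at mean DNA counts of 6502.8 and 4253.6, were the closest to 0, at -0.05 and -0.16. Cdkn1a_t4, also in an intron, had 5 barcodes below 0 too (median -0.13, from -0.59 to -0.10), of which 2 were called lower. The highest median was 0.38 in Cdkn1a_t17 (3 barcodes, from -0.05 to 0.56, 1 called higher), in an untranslated region. Its scaled levels were -0.72, -0.59, -0.64, -1.01 and -0.76 in RNA libraries A_1, A_2, B_1, B_2 and B_3, and -0.90, -0.69, -0.73, -0.75 and -0.85 in DNA libraries A_1, A_2, A_3, B_1 and B_2, so that the groups overlapped. Cdkn1a_t16, which shares 41 bases with it, had a single passing barcode at -0.65.

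In Irx5 the tile medians spanned a narrow range. Among tiles with 3 or more barcodes, Irx5_t1 and Irx5_t6 were highest at 0.19 each, with no barcode called, and Irx5_t13 was lowest at -0.03. Irx5_t1 had scaled levels of -0.63, -0.76, -1.06, -0.72 and -0.63 in RNA libraries A_1, A_2, B_1, B_2 and B_3, and -1.14, -0.94, -0.91, -1.16 and -0.99 in DNA libraries A_1, A_2, A_3, B_1 and B_2. All RNA libraries but B_1 lay above the DNA libraries, but the middle barcode switched between TGGAGTCGGT and GCATACTAAC from library to library. The log2 ratios of the tile's barcodes were 0.19, 0.19 and -0.11. For Irx5_t13 the levels ran from 1.75 to 1.95 in RNA and from 1.86 to 1.96 in DNA and overlapped.

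The 3 Irx5 tiles with the highest medians, Irx5_t7, Irx5_t4 and Irx5_t2, had only 1 or 2 passing barcodes each, and were named after their values were seen. The single barcode of Irx5_t4 was at 0.63 and called higher. In Irx5_t7, a coding tile, AGTAAGCATC was higher at 0.90 (SE 0.105, adjusted p = 1.92e-08 by edgeR). The other barcode had a log2 ratio of 1.26 but a mean DNA count of only 8.0, and was not called (SE 0.704, adjusted p = 0.133 by edgeR). In Irx5_t2, upstream of the gene, the barcodes were at 0.45 and 0.47, both called higher, the closest agreement among the tiles above 0.4.

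In Sox2_t1 every passing barcode was called higher. It lies upstream of Sox2, within the span of the long noncoding gene Sox2ot. The tile's scaled levels were 2.28, 2.44, 2.38, 2.26 and 2.36 in RNA libraries A_1, A_2, B_1, B_2 and B_3, and 1.90, 1.85, 1.81, 1.94 and 1.94 in DNA libraries A_1, A_2, A_3, B_1 and B_2. Every RNA library lay above every DNA library. Its 4 passing barcodes had log2 ratios of 0.40, 0.58, 0.29 and 0.33, and an SD of 0.13 between them. Its median of 0.37 corresponds to less than the 2-fold excess required of an active barcode. The lowest Sox2 tile, Sox2_t6 in an untranslated stretch, had a median of -0.03 over 4 barcodes that ran from -0.41 to 0.58, with RNA levels of 0.09 to 0.26 and DNA levels of 0.18 to 0.43.

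To compare the loci over libraries, the median scaled level over each locus's barcodes was taken in each library and RNA was set against DNA in a two-sided exact permutation test. With 5 libraries against 5 its smallest possible p is 0.00794. Irx5 was higher in RNA by 0.21 on the log2 scale, at 0.08 ± 0.08 in RNA and -0.12 ± 0.04 in DNA (SD, n = 5 each), and in 5 of 5 RNA libraries (exact permutation p = 0.00794, adjusted over the 4 loci 0.0317). Enc1 was higher by 0.12, at 0.21 ± 0.07 against 0.09 ± 0.06, with 4 of 5 RNA libraries above all DNA libraries (adjusted exact permutation p = 0.0317). Leaving out any 1 library other than RNA library B_2 or DNA library A_3 ended the Enc1 call, with differences between 0.10 and 0.14. Sox2 differed by 0.15 (adjusted exact permutation p = 0.127) and Cdkn1a by -0.09 (adjusted exact permutation p = 0.198), neither past 0.05. Within the letter A libraries the differences were 0.13 in Enc1, -0.26 in Cdkn1a, 0.13 in Irx5 and 0.12 in Sox2. Within the letter B libraries they were 0.13, 0.07, 0.27 and 0.18 in the same order, so that Cdkn1a changed sign.

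This per-library median follows whichever barcode is in the middle of the pool's very unequal plasmid shares, and that barcode can change from library to library. With each barcode first centred on its own mean over the 10 libraries, an alternative chosen after seeing the data, the differences were 0.09 in Enc1, -0.04 in Cdkn1a, 0.08 in Irx5 and 0.19 in Sox2, each with an adjusted exact permutation p under 0.05 (0.0159, 0.0212, 0.0238 and 0.0159). With libraries scaled by total count in place of the median, the median over all barcodes of the pool fell by 0.60 in RNA. Scaling moves all barcodes of a library alike, so taking off that shift returns nearly the same locus differences by construction. Relative to the shift Enc1 was at 0.13, Cdkn1a at -0.09, Irx5 at 0.21 and Sox2 at 0.16.

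Against the scrambled controls, the background measured in the same libraries, no locus was higher. Cdkn1a was below them by 0.38 in RNA relative to DNA, at -0.46 ± 0.08 in RNA and -0.08 ± 0.12 in DNA (SD, n = 5 each), in 5 of 5 RNA libraries (adjusted exact permutation p = 0.0317). The value was -0.50 in the letter A libraries and -0.22 in the letter B libraries, and without RNA library A_2 it was -0.34 with an adjusted exact permutation p of 0.0635. The remaining RNA libraries all still lay below the DNA libraries. Leaving out any other single library, which allows as many splits, kept the call (adjusted exact permutation p = 0.0317 each time). The corresponding differences were -0.16 in Enc1, -0.08 in Irx5 and -0.14 in Sox2, with adjusted exact permutation p-values of 0.175, 0.190 and 0.190. With barcodes centred, Cdkn1a was at -0.22, Enc1 at -0.09 and Irx5 at -0.09, all past the threshold (adjusted exact permutation p = 0.0317, 0.0317 and 0.0423), and Sox2 was at 0.01.

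Of the 6 pairs of loci, 1 passed the test: Cdkn1a was lower than Irx5 by 0.30 (exact permutation p = 0.00794, adjusted 0.0476), in 5 of 5 RNA libraries. Leaving out any of the 5 DNA libraries ended that call, with adjusted exact permutation p-values of 0.0714 to 0.0952 and differences of -0.32 to -0.28. Every RNA library still lay below every remaining DNA library. With any 1 RNA library left out instead, which allows as many splits, the call stayed (adjusted exact permutation p = 0.0238 to 0.0476). The difference was -0.39 in the letter A and -0.20 in the letter B libraries. Enc1 exceeded Cdkn1a by 0.21 (adjusted exact permutation p = 0.0714), a value that was 0.39 in the letter A and 0.06 in the letter B libraries, and that passed without RNA library B_2 (0.25, adjusted exact permutation p = 0.0238). Cdkn1a was below Sox2 by 0.24 (adjusted exact permutation p = 0.127), and this pair passed without RNA library B_1 (-0.31, adjusted exact permutation p = 0.0476). Enc1 and Irx5 differed by -0.08, Enc1 and Sox2 by -0.03, and Irx5 and Sox2 by 0.06, with adjusted exact permutation p-values of 0.429, 0.786 and 0.562. The pairs with Sox2 turned with the summary: Enc1 minus Sox2 passed at -0.12 with means and at 0.32 with medians of tile medians, and Irx5 minus Sox2 passed at -0.082 and at 0.27. With barcodes centred, Cdkn1a was lower than each of the other 3 loci, by 0.13 against Enc1 and Irx5 and by 0.23 against Sox2 (adjusted exact permutation p = 0.0238 for each).

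Promoter tiles were then compared with gene body tiles inside each locus, a promoter tile being one that began less than 1000 bp upstream of a start site in the study's list. Enc1 had 3 promoter tiles with 13 passing barcodes, of which 7 were higher, 2 lower and 1 active, and 15 gene body tiles with 56 passing barcodes, of which 15 were higher, 8 lower and 1 active. The median log2 ratio was 0.27 in the promoter and 0.04 in the gene body. Over libraries, the promoter's RNA excess over the gene body's was 0.25, in 4 of 5 RNA libraries above all DNA libraries (adjusted exact permutation p = 0.0238). It was 0.32 in the letter A and 0.17 in the letter B libraries, and adjusted exact permutation p rose to 0.0556 without DNA library A_1, A_2 or A_3. With medians of tile medians it was 0.16 (adjusted exact permutation p = 0.143). Enc1 promoter tiles had 58.9% to 62.2% GC and the gene body tiles a median of 46.7%, and promoter barcodes had a median DNA count of 3440.4 against 584.7. The part of either in the difference was not tested.

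Cdkn1a has several annotated start sites, so its 7 promoter tiles included 4 that lie inside the gene. They held 16 passing barcodes, 2 higher and 5 lower, with a median log2 ratio of -0.13. The 14 gene body tiles held 45, 10 higher and 11 lower, with a median of -0.05. The promoter lay below the gene body by 0.19 (adjusted exact permutation p = 0.0119). That result depended on the definition and on the summary: it was 0.23 with the first annotated start alone, 0.26 with medians of tile medians, -0.026 with barcodes centred and -0.011 with means, none past 0.05 (adjusted exact permutation p = 0.0873, 0.143, 0.587 and 0.786). With the first start alone, 4 barcodes in 2 tiles stood for the promoter.

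In Irx5 the promoter was represented by the 2 barcodes of Irx5_t2, and lay above the gene body by 0.41 (adjusted exact permutation p = 0.0119, 5 of 5 RNA libraries). Irx5_t1 counted as gene body here, since it begins exactly 1000 bp before the start in the study's list. With the first start of the reference annotation it joined the promoter, and the difference was 0.32 (adjusted exact permutation p = 0.0357). When tiles within 1000 bp on either side of a start site were counted as promoter, the difference was 0.18 in both Irx5 and Enc1 and -0.08 in Cdkn1a, and none passed (adjusted exact permutation p = 0.127, 0.127 and 0.270). In the Sox2 tiles that were read no promoter barcode could be measured, so the comparison was not possible.

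Grouped by position, the 8 tiles that lie outside the 4 genes on the upstream side had the highest ratios. Of their 26 passing barcodes 13 were higher and 4 were lower, with a median log2 ratio of 0.28. Of the 13 higher, 7 came from the Enc1 promoter tiles and 4 from Sox2_t1. In the whole pool 23.4% of barcodes were higher and 19.2% lower, and in the scrambled controls 37.9% and 12.1%, with a median of 0.17. The 24 intronic tiles had 22 higher and 15 lower of 86 barcodes, with a median of -0.05. The 9 coding tiles had 8 higher and 6 lower of 29, with a median of 0.09. The 15 tiles placed in untranslated regions, in part or in full, had 7 higher and 8 lower of 36, with a median of 0.07. The remaining 3 tiles, at exon edges, had 1 higher and 0 lower of 4, with a median of 0.08. The grouping was made with the values known and was not tested. The higher barcodes upstream came from all loci except Cdkn1a, whose 4 upstream barcodes, in t1 and t2, included 2 called lower and none called higher.

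GC content moved with the ratios as well. Over the 40 tiles with 3 or more barcodes, the tile median and GC content had a Pearson r of 0.36 and a Spearman rho of 0.39, and over the 15 such Enc1 tiles 0.61 and 0.65. The relation had the same sign in 95 tiles of the other loci that could be read (0.38 and 0.32) and in 26 scrambled tiles (0.44 and 0.44). These are descriptions over tiles that share libraries, and the part of GC content in the results above was not tested. The DNA count had no such relation to the ratio over the 181 barcodes (r of 0.01, rho of 0.01).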

How the data were processed

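The authors deposited a table of raw barcode counts, with no normalization, for 23420 barcodes in 5 RNA and 5 plasmid DNA libraries. Per the study's methods, no molecular identifiers are named, so a count is a read and not a molecule. Total counts ran from 18725458 to 35098552 in RNA and from 9846269 to 24602523 in DNA, and the top 1% of barcodes took 34.1% to 36.3% of RNA counts but 9.6% to 9.8% of DNA counts. The counts were used as deposited.

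Barcodes with 10 or more counts in 3 or more DNA libraries were kept (16285). Libraries were scaled by the median count over kept barcodes with 10 or more counts. RNA was tested against DNA with edgeR 4.0.16 (glmQLFit, glmQLFTest, R 4.3.3) with Benjamini-Hochberg adjustment over all kept barcodes, and scripts were tested on simulated data. Locus values were medians of log2 (count + 0.5, scaled) per library, compared with exact permutation tests. DESeq2 1.42.0 and other scalings, filters, summaries and library subsets were alternatives. Tiles were placed on mm10 with GENCODE vM21.

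The tiles named were, for each locus, the highest and lowest medians among tiles with 3 or more barcodes, tiles with an active barcode, at a start site, overlapping, or without a passing barcode; others are said to be named later. The members, motifs and lists were chosen with earlier results of these data known. The RNA-seq and Hi-C samples of the series were not used here. The library names shared by RNA and DNA did not pair the libraries: deviations from the group mean of same-named libraries correlated between -0.058 and 0.025 over 15755 barcodes. Replicate libraries differed by more than counting error (chi-square per degree of freedom 2.90 to 21.9).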

Additional observations from a re-analysis of the deposited data

Results flagged for a closer look

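Among 50 groups of 5 libraries examined, 4 had a single library whose gap to its nearest neighbour took a larger part of the group's range than Dixon's 95% critical value for 5 values, where chance flags about 1 in 20 groups. The Irx5 level in DNA ran from -0.16 to -0.06, with DNA library A_1 highest (gap 0.719 of the range). Cdkn1a minus scrambled controls in RNA ran from -0.60 to -0.40, with RNA library A_2 lowest (0.757). Cdkn1a minus Irx5 in RNA ran from 0.11 to 0.36, with RNA library B_1 highest (0.862). The level of tile Enc1_t6 in DNA ran from -1.71 to -1.29, with DNA library A_3 highest (0.749).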

How the results depend on the processing

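The members higher than DNA numbered 49 to 58 and those lower 33 to 36 with DESeq2, other library factors or other filters, except that with no count minimum 21 were lower. Within letter A 4 members were active, and within letter B 27 were higher and 17 lower. Leaving out 1 library gave 47 to 53 higher and 24 to 33 lower. In a fit with a replicate block over the 4 shared library names 41 were higher, 26 lower and 2 active, while the data gave no sign that the names pair the libraries. The paired locus differences were 0.15 in Enc1, -0.09 in Cdkn1a, 0.19 in Irx5 and 0.17 in Sox2, where 4 pairs allow no p below 0.125, and 2 against 3 libraries within a letter none below 0.1.

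With means over barcodes, Cdkn1a (-0.068) and Sox2 (0.18) passed, as did Enc1 minus Cdkn1a (0.13), Enc1 minus Sox2 (-0.12) and Cdkn1a minus Sox2 (-0.25). Irx5 minus Sox2 turned to -0.082 and passed in that direction, and the Cdkn1a promoter difference was lost (-0.011). With medians of tile medians, Sox2 minus scrambled controls (-0.36), Enc1 minus Cdkn1a (0.32) and Irx5 minus Sox2 (0.27) passed, Enc1 minus Sox2 turned to 0.32 and passed in that direction, the Enc1 promoter difference was lost (0.16) and that of Cdkn1a turned to 0.26. The Sox2 level was then at -0.11, not past the threshold. Enc1 minus Sox2 and Irx5 minus Sox2 thus passed in opposite directions under these summaries. Total count scaling gave -0.48 in Enc1, -0.69 in Cdkn1a, -0.39 in Irx5 and -0.45 in Sox2, beside -0.60 over all barcodes. At 50 counts Enc1 minus Cdkn1a passed (0.23).

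Centring each barcode, chosen after seeing the data, brought past 0.05 the levels of Cdkn1a (-0.043) and Sox2 (0.19), Enc1 and Irx5 minus scrambled controls (-0.091 and -0.094), and Enc1 minus Cdkn1a (0.13), Enc1 minus Sox2 (-0.10) and Cdkn1a minus Sox2 (-0.23), and ended the Cdkn1a promoter difference (-0.026). Within letter A Cdkn1a was at -0.26 and Enc1 minus Cdkn1a at 0.39. Within letter B Cdkn1a was at 0.07, and at -0.22 minus scrambled controls. Promoters counted on either side gave 0.18 in Enc1, -0.083 in Cdkn1a and 0.18 in Irx5, and the reference start 0.23 in Cdkn1a. The cause of these changes was not tested.

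Leaving out 1 library gave 0.10 to 0.14 for Enc1, and minus scrambled controls -0.22 to -0.13 for Enc1, where the lowest value, without RNA library A_1, passed, and -0.41 to -0.34 for Cdkn1a. The pairs ran from 0.17 to 0.25 for Enc1 minus Cdkn1a, -0.34 to -0.28 for Cdkn1a minus Irx5 and -0.31 to -0.18 for Cdkn1a minus Sox2, and the Enc1 promoter difference from 0.22 to 0.30. Tiles with fewer than 3 passing barcodes, 19 of the 59, and barcodes of low DNA count limit what could be detected.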

Other observations

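Of the 181 passing members, 167 had another barcode of the table at a single mismatch, and for 21 such a neighbour had over 10 times the summed count. The barcode furthest below its DNA in Enc1, GCAAATGTCG of Enc1_t17, had a summed count of 2748 over the 10 libraries and 1 such neighbour, with 17977. The active barcodes ATTTTCCGAT of Enc1_t1 and ATTTGTCGAC of Enc1_t7 had summed counts of 122879 and 12340, above those of all their neighbours, the largest of which held 46866 and 1431. ACTTTTGCGT of Cdkn1a_t5 had 5645, and its most abundant neighbour 8485.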
